A study of Rattus norvegicus with 232 samples.

Results

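The fawn-hooded hypertensive rat, FHH/EurMcwi, is an inbred strain whose brain RNA was set here against that of 7 other classic inbred strains sequenced in batches 15 to 17. Its members are the 3 animals labelled FHH/EurMcwi, of 232 samples in the whole series, and they were chosen by strain label only. The comparison strains were BN/NHsdMcwi, GK/FarMcwi, LH/MavRrrc, M520/N, MWF/Hsd, PVG/Seac and WAG/RijCrl, with 3 animals each, 21 in all. All 24 were untreated, and each contributed 1 library of stranded, rRNA-depleted total RNA from whole brain. The series describes its animals as naive males; the labels of these 24 libraries give neither sex nor age. Batches 15, 16 and 17 each held 1 FHH animal, beside 3, 8 and 10 comparison animals. BN/NHsdMcwi, GK/FarMcwi, LH/MavRrrc and PVG/Seac had no animal in batch 15 and WAG/RijCrl none in batch 17, so strain and sequencing batch were partly confounded. Every strain was represented by a single inbred line, so the FHH animals share 1 genotype, and a difference between FHH and the rest is a difference of that line.

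Fawn-hooded rats are known for a diluted coat colour, a bleeding tendency with a defect of platelet dense granules, and, in the hypertensive line, high blood pressure with kidney disease. Dense granules and melanosomes are lysosome-related organelles, and both store or move cargo with the help of Rab38, a small GTPase that is defective at the ruby-eye locus of these rats. Platelets take up serotonin through the same transporter that serotonin neurons use and store it in their dense granules, which is why serotonin genes have long been of interest in this strain. In brain the astrocyte, a glial cell, clears potassium and couples to its neighbours through gap junctions, and several of the genes described here act there.

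The deposited values are on a regularized log2 scale, and every level and every difference given here is on that scale. A difference of 1 would be a doubling on a plain log2 scale, but regularization shrinks differences of low genes. No read counts were used, so the depth of each library is unknown. A limma fit to 20859 features, with the contrast of FHH against the unweighted mean of the 7 strains, called 246 features higher (1.18% of those tested) and 169 lower (0.81%) at a Benjamini-Hochberg adjusted p under 5%. The p-value measures spread between animals of a strain, not between strains. When strain was entered instead as a random block, with an estimated correlation of 0.16 within strains, 37 features were called, all of them among the 415. Of the 25 called genes that met the fixed naming rule only Nat8f3, Nat8f4, Stambpl1 and Tmem161a were still called. That correlation was 1 consensus value used for every feature. Where strains differ more than it implies, the p-value of the random-block fit also understates the spread between strains. With sequencing batch as a covariate 337 features were called higher and 270 lower. Library medians ranged from 8.27 to 8.37. The library WAG/RijCrl 2 had the lowest median correlation with the other 23 (0.992), and without it 275 were called higher and 186 lower. Leaving out FHH animal 3 gave 104 higher and 81 lower, and leaving out FHH animal 2 gave 132 and 87.

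Brain tissue was checked by markers. The mean level of 10 neuron markers was 13.66 to 13.71 in FHH and 13.62 to 13.80 in the other animals, and that of 10 astrocyte markers 12.72 to 12.88 against 12.50 to 12.93. Markers of platelets lay low in all libraries, at 4.24 to 4.47 in FHH and 4.20 to 4.52 elsewhere for 7 measured of 10. Of 10 meninges and fibroblast markers 2 were called higher (1.18% of all features were), Col3a1, a fibrillar collagen, by 0.25 and Igf2, an insulin-like growth factor, by 0.27. Over single omissions their adjusted p reached 0.42 and 0.249, both without FHH animal 2, and with strain as a random block neither was called (adjusted p = 1 and 0.883). The mean level of these 10 was 9.71 to 9.81 in FHH against 9.35 to 9.84. None of 10 striatum, 10 oligodendrocyte or 10 liver markers was called; 1 striatum marker had a positive difference (median −0.12), as did 4 oligodendrocyte markers (median −0.04) and all 10 liver markers (median 0.08). The part of these cell types and regions in the results was not tested.

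In 109 features (0.523%) all 3 FHH animals lay outside the range of the other 21, 60 above (0.288%) and 49 below (0.235%). These counts depended on the animals compared: adding 6 strains of the same batches gave 39 above and 20 below, and without FHH animal 1, with 2 FHH animals left to lie outside, there were 210 and 217. The reconstructed gene table, with 84239 features and without FHH animal 1, gave 577 and 711. Of the 109, 87 (0.417%) were also called by limma, 49 above (0.235%) and 38 below (0.182%), and 34 of the 87 kept their call with strain as a random block. Levels of these 87 were mostly low: 23 had a mean over the 24 libraries above that of the median feature, 8.31. The median size of the difference was 0.56, and 9 exceeded 1. The same count was made for each strain in turn against the remaining 21 animals. It gave 7 above and 7 below for WAG/RijCrl at one end. At the other it gave 128 above and 129 below for BN/NHsdMcwi and 119 above and 140 below for GK/FarMcwi. The FHH counts thus lay within the range of the other strains.

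**Figure D1:**
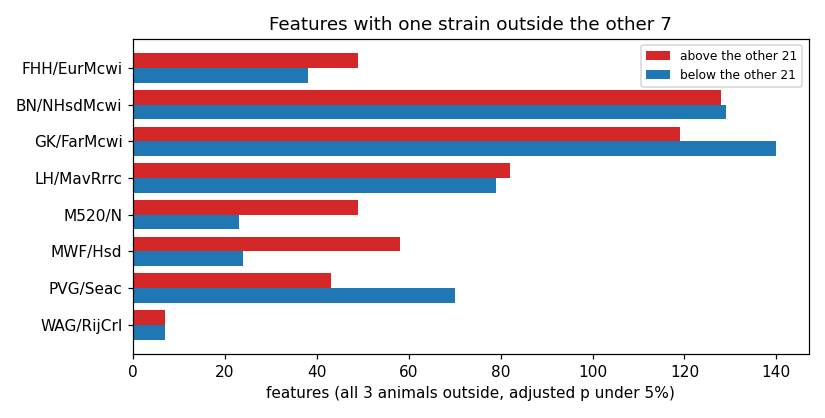
Number of features, on the horizontal axis, for which all 3 animals of a strain lay above (red) or below (blue) the 21 animals of the other 7 strains and limma called the strain at an adjusted p under 5%. FHH had 49 and 38. WAG/RijCrl had the fewest with 7 and 7, BN/NHsdMcwi the most above (128, with 129 below) and GK/FarMcwi the most below (140, with 119 above).

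**Figure D2:**
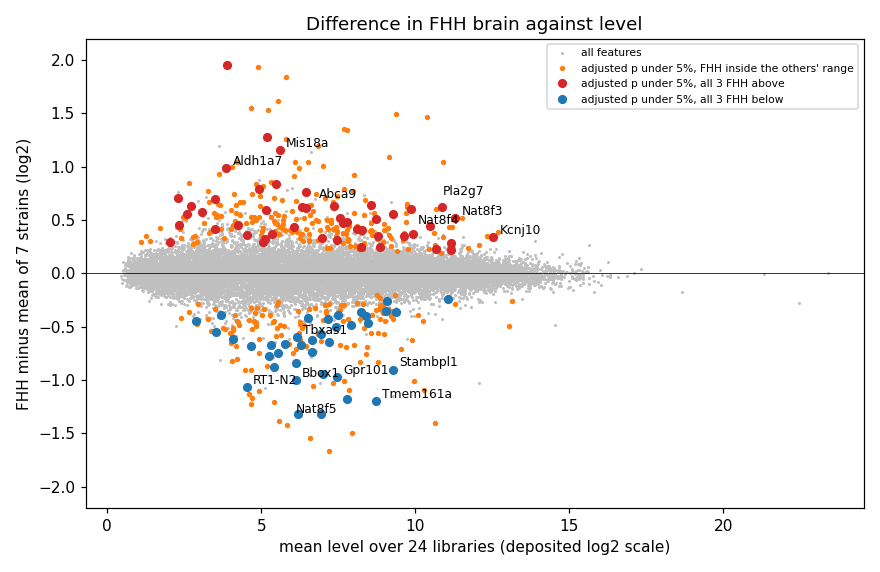
Difference of FHH from the mean of the 7 strains (vertical axis, log2) against mean level over 24 libraries (horizontal axis, deposited log2 scale), 1 point per feature. Red and blue points are the called features with all 3 FHH animals above or below the rest, and orange points were called without that separation. Features that were not called are grey, also where separated, and 3 features lie beyond the axis limit of 2.2.

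Complete separation was seen in 3 genes of 1 family that lie near each other on chromosome 4, with the widest gap for Nat8f5 and the narrowest for Nat8f3. Nat8f3, Nat8f4 and Nat8f5 are N-acetyltransferases of the NAT8 family, enzymes of the endoplasmic reticulum membrane; Nat8f3 and Nat8f4 were higher in FHH and Nat8f5 lower. Their promoters are printed because the neighbours moved in opposite directions. Each is 300 bases, 250 before and 50 after the start of the gene, from RefSeq on build GRCr8, 5′ to 3′ on the gene's strand. This build's reference strain is BN/NHsdMcwi, not FHH. Capitals mark the searched motifs, read on both strands: the TATA box as TATAAA, the CCAAT box as CCAAT and the GC box as GGGCGG.
Nat8f3, chr4:119803427-119803726, minus strand: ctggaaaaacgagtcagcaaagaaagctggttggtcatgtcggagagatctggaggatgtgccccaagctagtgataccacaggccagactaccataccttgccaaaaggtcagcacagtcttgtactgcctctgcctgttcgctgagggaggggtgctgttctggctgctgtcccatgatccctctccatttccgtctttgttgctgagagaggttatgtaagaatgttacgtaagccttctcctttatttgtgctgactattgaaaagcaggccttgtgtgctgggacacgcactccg
Nat8f4, chr4:119890017-119890316, minus strand: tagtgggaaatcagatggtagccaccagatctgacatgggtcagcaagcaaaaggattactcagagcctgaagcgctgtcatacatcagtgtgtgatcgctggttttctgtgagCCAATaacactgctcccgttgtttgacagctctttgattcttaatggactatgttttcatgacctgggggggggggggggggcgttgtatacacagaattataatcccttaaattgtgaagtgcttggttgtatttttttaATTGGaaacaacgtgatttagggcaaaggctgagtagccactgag
Nat8f5, chr4:119842454-119842753, minus strand: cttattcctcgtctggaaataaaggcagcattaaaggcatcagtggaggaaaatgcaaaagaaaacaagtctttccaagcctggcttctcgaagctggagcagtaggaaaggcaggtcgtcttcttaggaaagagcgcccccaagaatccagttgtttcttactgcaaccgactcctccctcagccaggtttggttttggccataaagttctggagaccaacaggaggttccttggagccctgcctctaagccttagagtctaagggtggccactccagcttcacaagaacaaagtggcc
Only the Nat8f4 window held a capitalised motif, CCAAT once on each strand, at positions 115 and 256 of the window. Of 33469 promoters of that length, the CCAAT box was held by 37.5%, the TATA box by 14.2% and the GC box by 33.1% on either strand. These motifs do not overlap one another.

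Nat8f5 was read at 6.89, 6.67 and 6.73 in the 3 FHH animals, against a lowest of 7.75, a median of 7.92 and a highest of 8.33 in the other 21. No comparison animal came within the FHH range, and the gap between them exceeded the spread of the FHH animals. The difference was −1.18 (SE 0.0784, adjusted p = 1.06e-08). Nat8f4 stood at 10.38, 10.41 and 10.41 in FHH and at a lowest of 9.49, a median of 9.83 and a highest of 10.02 elsewhere, a difference of 0.61 (SE 0.05, adjusted p = 1.44e-07). For Nat8f3 the FHH values were 11.80, 11.73 and 11.74, and the others had a lowest of 10.95, a median of 11.25 and a highest of 11.58, a difference of 0.52 (SE 0.0572, adjusted p = 7.84e-06). In this family LH/MavRrrc was the nearest comparison strain for Nat8f3 (mean 11.56) but the lowest for Nat8f4 (9.57), so the order of the other strains differed between the neighbours. Nat8f1, the next family member in the deposited annotation, was called higher as well (0.44, adjusted p = 0.0381) but inside the range of the others. BN/NHsdMcwi averaged 7.58, WAG/RijCrl 7.57 and MWF/Hsd 7.53, level with FHH at 7.53. Of 10 measured members of a list of NAT8 and mercapturate genes chosen after the values were seen, 3 were called higher and 1 lower, where 1.18% and 0.81% of all features were. Nat8f1 lost its call with strain as a random block (adjusted p = 1), and Nat8f3, Nat8f4 and Nat8f5 were still called, at adjusted p = 0.0311 or lower. These paralogs are alike in sequence, and how reads were shared among them is not given, so their levels are uncertain. In the deposited annotation exons of Nat8f3 overlap Alms1 on the opposite strand and exons of Nat8f4 overlap Dusp11 on the same strand. The libraries were stranded, but the strand setting of the counting is not given in the sources used here. In the transcript table the single transcripts of Nat8f3, Nat8f4 and Nat8f5 gave 0.66, 0.81 and −2.01, each called with the 3 FHH animals outside the rest, where 0.602% of all transcripts were called.

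Gpr101, an X-linked orphan G-protein-coupled receptor, was also separated by a gap. FHH animals had 6.71, 6.53 and 6.58, below every other animal, which ran a lowest of 7.37, a median of 7.58 and a highest of 7.79. The difference was −0.97 (SE 0.0738, adjusted p = 3.88e-08). Strain means of the other 7 lay within 7.52 to 7.65, and the 3 FHH animals lay below all 21. FHH was also the lowest of all 74 strains of the table, the next being SR/JrHsd at 7.11. Its 1 transcript was called lower too (−1.57). Within batches 15, 16 and 17 the FHH animal differed by −0.70, −1.11 and −1.01 from the mean of the others. Gpr101 and Nat8f5 lie under the level required for the leading genes and are named here after their values were seen.

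Tmem161a, which encodes a multi-pass transmembrane protein, had the largest decrease among the called and separated genes above the median level. FHH read 7.98, 7.48 and 7.55, while the others had a lowest of 8.46, a median of 8.89 and a highest of 9.26. The difference was −1.19 (SE 0.113, adjusted p = 9.89e-07), and within batches it was −0.56, −1.45 and −1.35. Both of its listed transcripts were called lower (−2.31 and −3.63). Stambpl1, a deubiquitinase of the AMSH family, came next. Its 3 FHH levels were 8.78, 8.59 and 8.07, and the lowest comparison animal stood at 9.23 with a median of 9.37 and a highest of 9.60. That was a difference of −0.90 (SE 0.0932, adjusted p = 3.26e-06). FHH animals spread more widely for Stambpl1 than the animals of other strains did, but none reached them. LE/Stm, a strain outside the comparison with 1 animal in the table, had 8.47.

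**Figure D3:**
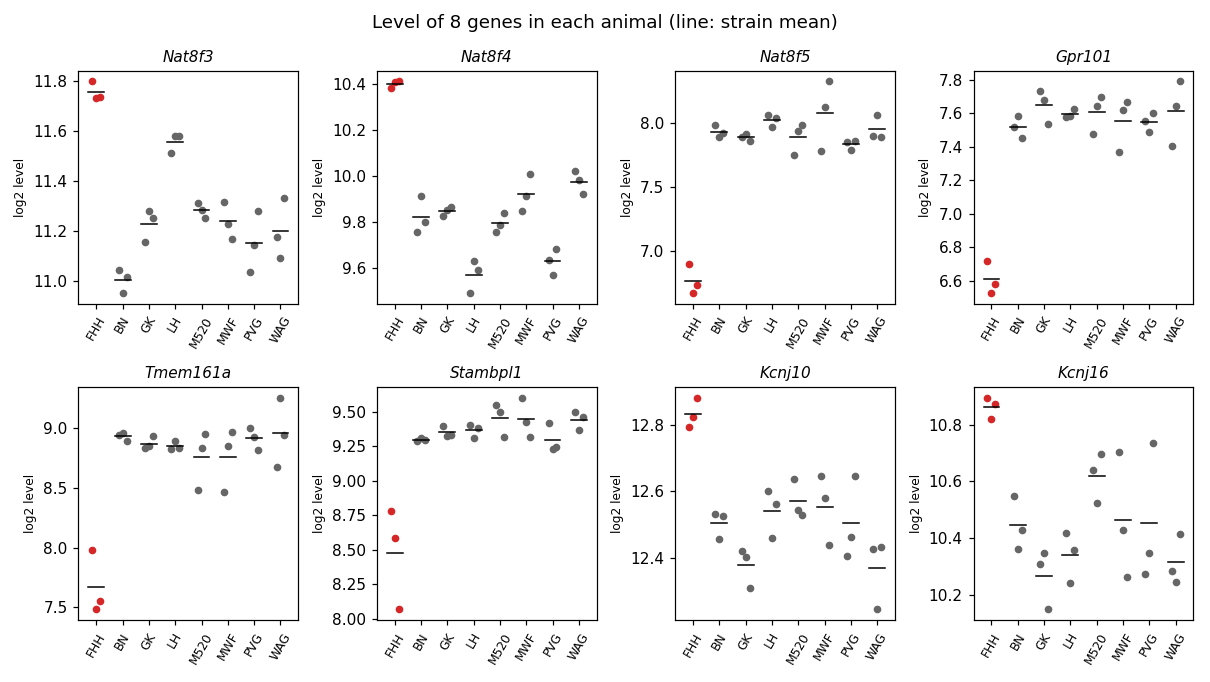
Level on the deposited log2 scale (vertical axes, each with its own range) of 8 genes in the 3 animals of each of 8 strains. FHH is red, the comparison strains grey, and lines are strain means. FHH lies above the rest for Nat8f3, Nat8f4, Kcnj10 and Kcnj16 and below for Nat8f5, Gpr101, Tmem161a and Stambpl1.

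Among the genes above the median level, 13 named protein-coding genes rose and 8 fell with full separation. Several of those that rose are known from astrocytes, but of the 10 astrocyte markers 1 was called, Gjb6, and their median difference was 0.06. Kcnj10 and Kcnj16 encode Kir4.1 and Kir5.1, inwardly rectifying potassium channel subunits that assemble together in glia. Kcnj10 was 12.79, 12.82 and 12.88 in FHH against a lowest of 12.24, a median of 12.46 and a highest of 12.65 in the rest, a difference of 0.34 (SE 0.0599, adjusted p = 0.00175). Kcnj16 was 10.89, 10.82 and 10.87 against a lowest of 10.15, a median of 10.36 and a highest of 10.74, a difference of 0.45 (SE 0.086, adjusted p = 0.00469). No comparison animal entered the FHH range of either gene, and the gaps were narrow. Leaving out FHH animal 3 took Kcnj16 to adjusted p = 0.0531, and Kcnj10 stayed called under every single omission. Promoters of both are printed because the channel subunits moved together.
Kcnj10, chr13:87334260-87334559, plus strand: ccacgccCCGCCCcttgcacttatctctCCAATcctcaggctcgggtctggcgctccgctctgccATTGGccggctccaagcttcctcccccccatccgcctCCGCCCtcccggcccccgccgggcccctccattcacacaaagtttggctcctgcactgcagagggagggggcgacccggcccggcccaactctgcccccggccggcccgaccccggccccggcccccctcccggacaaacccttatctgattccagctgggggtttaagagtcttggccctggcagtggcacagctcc
Kcnj16, chr10:96517074-96517373, plus strand: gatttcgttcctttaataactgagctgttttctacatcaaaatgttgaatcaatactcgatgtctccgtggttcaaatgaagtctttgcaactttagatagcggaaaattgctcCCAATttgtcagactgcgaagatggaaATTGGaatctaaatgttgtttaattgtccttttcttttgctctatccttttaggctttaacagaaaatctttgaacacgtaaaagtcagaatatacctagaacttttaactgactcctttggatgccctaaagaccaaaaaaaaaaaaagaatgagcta
Both windows, printed as those above, held CCAAT once on each strand, and the Kcnj10 window held GGGCGG at 2 places on the opposite strand. Its GC content was 70.3%, that of the Kcnj16 window 34%.

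Gjb6, which encodes a gap junction connexin of astrocytes, was 10.80, 10.88 and 10.89 in FHH and a lowest of 10.45, a median of 10.61 and a highest of 10.75 in the others, a difference of 0.23 (SE 0.0469, adjusted p = 0.00838). Slc15a2, a peptide transporter of astrocytes and choroid plexus, was 11.39, 11.35 and 11.44 against a lowest of 10.86, a median of 11.15 and a highest of 11.32, a difference of 0.28 (SE 0.0507, adjusted p = 0.00239). Each of these calls was lost without FHH animal 3, at adjusted p = 0.107 for Gjb6 and 0.0519 for Slc15a2, and that of Gjb6 also without FHH animal 2. Of the 10 astrocyte markers the other 9 were not called. Of 25 inward rectifier and connexin genes, a list chosen after the values were seen, Kcnj10, Kcnj16 and Gjb6 were called higher (1.18% of all features were) and none lower, with a median difference of 0.00. None of these calls held with strain as a random block, at adjusted p = 0.0822 for Kcnj10, adjusted p = 0.148 for Kcnj16 and adjusted p = 0.412 for Gjb6. No transcript of Kcnj10, Kcnj16, Gjb6 or Slc15a2 was called, although all their differences were positive, from 0.20 to 1.39. All 10 choroid plexus markers had a positive difference (median 0.22), none called, and their mean level was 8.75 to 9.02 in FHH against 8.29 to 9.25. Their part in the calls was not tested.

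Abca9, an ATP-binding cassette transporter within 1 Mb of Kcnj16 on chromosome 10, showed the largest increase among the called and separated genes above the median level. FHH animals read 9.13, 9.11 and 9.13, all above the highest comparison animal at 9.09, with a median of 8.52 and a lowest of 7.96. The difference was 0.64 (SE 0.0606, adjusted p = 1.01e-06). By strain mean, MWF/Hsd (9.03) and M520/N (9.00) lay near FHH (9.12). None of the 3 transcripts of Abca9 was called, with differences from 1.40 to 2.19. With strain as a random block its adjusted p was 0.838, and the mean of LE/Stm, outside the comparison, was 9.29, above FHH. Its exons overlap those of Abca8a on the same strand in the deposited annotation, as those of Kcnj10 overlap Pigm. Deposited positions put Abca9 at chr10:95001480-95211566 and Kcnj16 at chr10:95989990-96047203, on a build not given in the sources used here. Of the 60 called and separated features with a position, 8 lay within 1 Mb of another, in 4 pairs. Among them were also Nat8f3 with Nat8f4, and Ak3 with Cd274 on chromosome 1. Abca9 and Kcnj16 rose, Nat8f3 and Nat8f4 rose, and Ak3 rose while Cd274 fell.

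Pla2g7, the secreted acetylhydrolase that inactivates platelet-activating factor, was 11.43, 11.38 and 11.46 in FHH and a lowest of 10.29, a median of 10.84 and a highest of 11.17 elsewhere, a difference of 0.62 (SE 0.0699, adjusted p = 9.25e-06). Its 1 transcript had a difference of 0.76 and was not called. GK/FarMcwi came nearest (mean 11.16) and BN/NHsdMcwi farthest (10.32). Remaining genes that rose with separation were Gpld1, a phospholipase that cuts glycosylphosphatidylinositol anchors (0.37), Dera, a deoxyribose-phosphate aldolase (0.35), Mylk, the myosin light chain kinase (0.35), Gcnt4, a glycosyltransferase (0.25), and Ak3, a mitochondrial adenylate kinase family member (0.22). Adjusted p-values of these 5 ran from 0.00112 to 0.0227. Dera lost its call without FHH animal 3 (adjusted p = 0.114), and Gcnt4 and Ak3 without any single FHH animal. Among unnamed loci LOC100360856 (0.56) and LOC102553943 (0.51) rose, but the 1 transcript of LOC102553943 was called lower (−2.97), so its direction depended on the table, and its gene-level call was lost without FHH animal 1 or 3.

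Among the genes above the median level that fell was Insr, the insulin receptor. It was 10.93, 10.81 and 10.76 in FHH against a lowest of 10.95, a median of 11.10 and a highest of 11.19, a difference of −0.24 (SE 0.048, adjusted p = 0.0055). Its 3 transcripts had differences from −1.30 to 0.65, and none was called. Of the other 73 strains with libraries of this version, 10 had a lower mean of Insr, so its separation held for the 7 comparison strains and not across the panel. Zfp94, a zinc finger gene, fell by 0.40, Aldh3b1, an aldehyde dehydrogenase, by 0.46, and Tbccd1, a centrosome-associated protein, by 0.26. For Zfp94 the means of MWF/Hsd (8.12) and M520/N (8.18) lay near that of FHH (8.05), and the remaining strains averaged 8.52 to 8.66. The 1 transcript of Aldh3b1 had a difference of 0.09, of the opposite sign, and was not called. Aldh3b1 lost its call in 12 of 24 single omissions, with adjusted p up to 0.257: any FHH or GK/FarMcwi animal, BN/NHsdMcwi 2 or 3, PVG/Seac 1 or 2, M520/N 2 or MWF/Hsd 2. Insr and Tbccd1 lost their calls only without FHH animal 2 or FHH animal 3.

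Rab38, the gene of the ruby-eye locus, was not called. FHH animals read 5.22, 4.93 and 5.63, and the other 21 had a lowest of 4.91, a median of 5.25 and a highest of 5.55, so 2 FHH animals lay within that range and FHH animal 3 above it. The difference was 0.01 (SE 0.0996, adjusted p = 0.999), with a 95% interval from −0.20 to 0.22. FHH animals differed from the batch means by −0.17, −0.40 and 0.49, without a common sign, and without FHH animal 3 the difference was −0.17. By mean level FHH ranked 55 of 74 strains counted from the lowest. Its 1 transcript gave a difference of 0.01 (adjusted p = 1). The deposited annotation places Rab38 at chr1:142167849-142262923, and none of the 15 measured genes within 2 Mb of it was called, with differences from −0.26 (Fzd4) to 0.14 (Ccdc81). These values are RNA levels and do not measure the protein or its sequence.

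Of 59 listed genes of lysosome-related organelles, among them the BLOC and AP-3 complexes that sort cargo to dense granules and melanosomes, 56 were measured and none was called, where 1.99% of all features were. An unadjusted p under 0.05 was reached by 5, and by 9.74% of all features. The differences ran from −0.16 (Rab29) to 0.21 (Rab32), and the median was 0.01 against 0.00 over all features. Rab32, the closest relative of Rab38, read 6.35, 6.00 and 6.39 in FHH and a lowest of 5.83, a median of 6.03 and a highest of 6.27 elsewhere, adjusted p = 0.461.

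**Figure D4:**
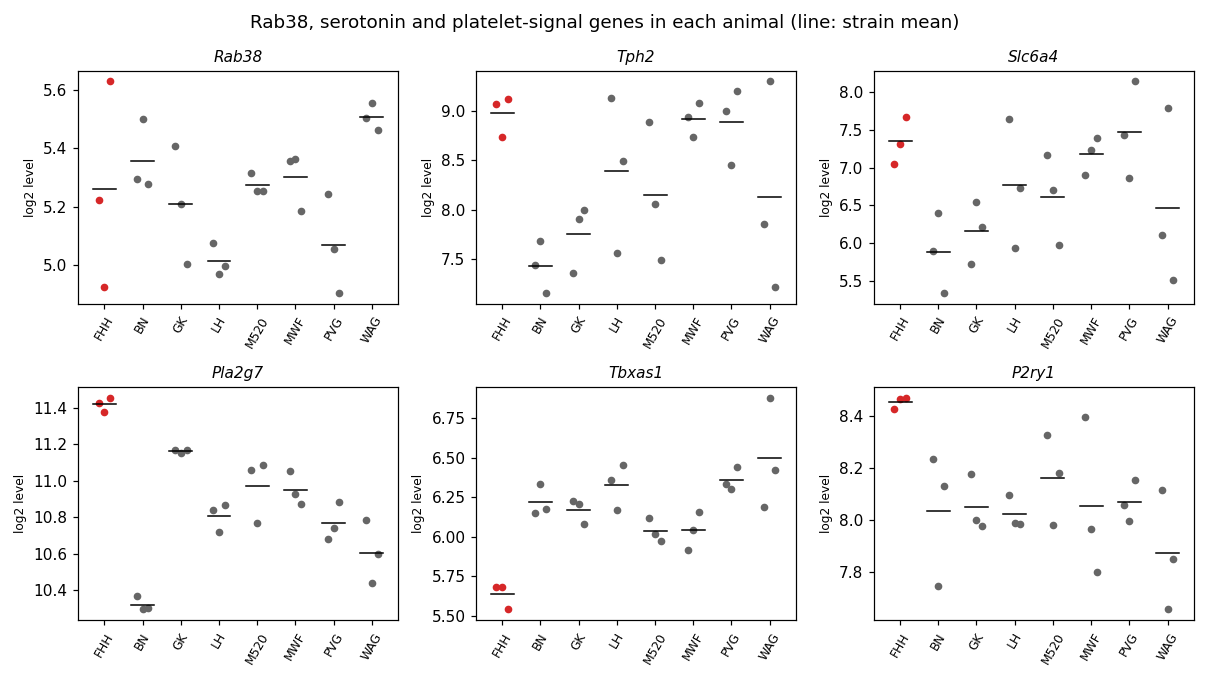
Level on the deposited log2 scale (vertical axes, each with its own range) of 6 genes in the 3 animals of each of 8 strains, with FHH in red and lines at the strain means. The FHH animals lie within the range of the others for Tph2 and Slc6a4, 1 FHH animal lies above that range for Rab38, and all 3 lie above the others for Pla2g7 and P2ry1 and below them for Tbxas1.

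Of 50 platelet and megakaryocyte genes 47 were measured, 1 was called higher, 1 lower and 45 not, where 1.99% of all features were called. Neither was called with strain as a random block, P2ry1 at adjusted p = 0.422 and Tbxas1 at adjusted p = 0.0704. P2ry1, a platelet and glial receptor for ADP, was 8.43, 8.46 and 8.47 in FHH and a lowest of 7.66, a median of 8.00 and a highest of 8.39 in the other animals, a difference of 0.42 (SE 0.107, adjusted p = 0.0466). Its 1 transcript had a difference of 0.55 and was not called. The call was lost in 16 of 24 single omissions, with adjusted p up to 0.261: any animal of FHH, LH/MavRrrc or PVG/Seac, BN/NHsdMcwi 3, GK/FarMcwi 2 or 3, M520/N 2 or 3, MWF/Hsd 2 or WAG/RijCrl 3. Tbxas1, thromboxane A synthase, was 5.68, 5.68 and 5.54 against a lowest of 5.92, a median of 6.19 and a highest of 6.88, a difference of −0.60 (SE 0.0935, adjusted p = 0.000545). FHH was the lowest of 74 strains for Tbxas1, the call held in every omission, and the single transcript was called lower (−1.14). Tbxas1 is expressed in platelets and in microglia. Microglia markers had a mean level of 9.34 to 9.51 in FHH against 9.26 to 9.67, of 10 members 1 was called (Itgam, −0.56), and their part in the Tbxas1 value was not tested.

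Genes that define platelets were not called. Itga2b, an integrin subunit of the fibrinogen receptor, was 5.41, 5.89 and 5.86 in FHH and a lowest of 5.24, a median of 5.68 and a highest of 6.06 elsewhere, with a difference of 0.04 (SE 0.0998, adjusted p = 0.999). In the deposited annotation its exons overlap Fam171a2 and Slc25a39 on the same strand and Rundc3a on the opposite strand, so its level is uncertain. Pf4, platelet factor 4, was 4.64, 4.60 and 4.98 against a lowest of 4.16, a median of 4.73 and a highest of 5.32, a difference of 0.07 (SE 0.146, adjusted p = 0.999). Both differences changed sign when single FHH animals were left out, reaching −0.05 for Itga2b and −0.05 for Pf4. Gp9 is not analysed here. The median over the 47 was −0.02. Of 33 measured enzymes and receptors for platelet-activating factor, thromboxane and prostaglandins, a list chosen after the values were seen, Pla2g7 and Tbxas1 were the 2 called, in opposite directions, where 1.99% of all features were called. Both calls were lost with strain as a random block, Pla2g7 at adjusted p = 0.164 and Tbxas1 at adjusted p = 0.0704.

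Of 9 measured markers of raphe serotonin neurons none was called and 6 had a positive difference, with a median of 0.15. Their mean level was 7.47 to 7.67 in FHH against 6.85 to 7.78 in the other animals. The differences ran from −0.21 for Htr1a, an inhibitory serotonin receptor, to 0.74 for Tph2, and Lmx1b (−0.11) and Slc22a3 (−0.04) were also negative. Tph2, the brain tryptophan hydroxylase, read 9.07, 8.74 and 9.12 in FHH and a lowest of 7.16, a median of 8.06 and a highest of 9.30 in the other 21, a difference of 0.74 (SE 0.318, adjusted p = 0.408), 95% interval 0.08 to 1.40. Slc6a4, the serotonin transporter, read 7.05, 7.32 and 7.68 against a lowest of 5.33, a median of 6.70 and a highest of 8.15, a difference of 0.70 (SE 0.366, adjusted p = 0.596). Slc18a2, the vesicular monoamine transporter, read 8.93, 8.89 and 9.02 against a lowest of 7.61, a median of 8.40 and a highest of 9.15, a difference of 0.49 (SE 0.172, adjusted p = 0.22). All 3 FHH values of these genes lay in the upper part of the range, but animals of MWF/Hsd and PVG/Seac reached the same levels, and single animals of LH/MavRrrc, M520/N and WAG/RijCrl did for Tph2. Serotonin neurons lie in the raphe nuclei of the brainstem, and no marker list covered the brainstem as a whole. The mean level of 11 hindbrain and spinal cord markers was 4.23 to 4.47 in FHH against 3.46 to 4.38, and all 11 had a positive difference (median 0.17), none called. Hoxb3, 1 of them, lay above the other 21 (0.57, adjusted p = 0.107). Their part in the serotonin values was not tested.

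Of 28 genes of serotonin synthesis, transport and breakdown 25 were measured and none was called, where 1.99% of all features were. An unadjusted p under 0.05 was reached by 5, and by 9.74% of all features, 18 had a positive difference, and the median was 0.09. The largest was Tph1, the tryptophan hydroxylase of pineal and gut, at 7.13, 10.54 and 5.16 in FHH against a lowest of 4.80, a median of 5.88 and a highest of 9.99, a difference of 1.14 (SE 0.91, adjusted p = 0.873), with 1 FHH animal far above the other FHH animals. The mean level of 7 measured pineal markers was 3.69 to 5.01 in the FHH animals against 3.69 to 4.87 in the others, and Pde6c, a cone phosphodiesterase among them, was 2.45, 4.52 and 1.94. Of 14 serotonin receptors 13 were measured and none was called, where 1.99% of all features were. Htr3a, a ligand-gated channel subunit, came nearest, with a difference of −0.32 and adjusted p = 0.055, with 7.07, 7.28 and 7.26 in FHH and a lowest of 6.99, a median of 7.58 and a highest of 7.89 elsewhere.

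**Figure D5:**
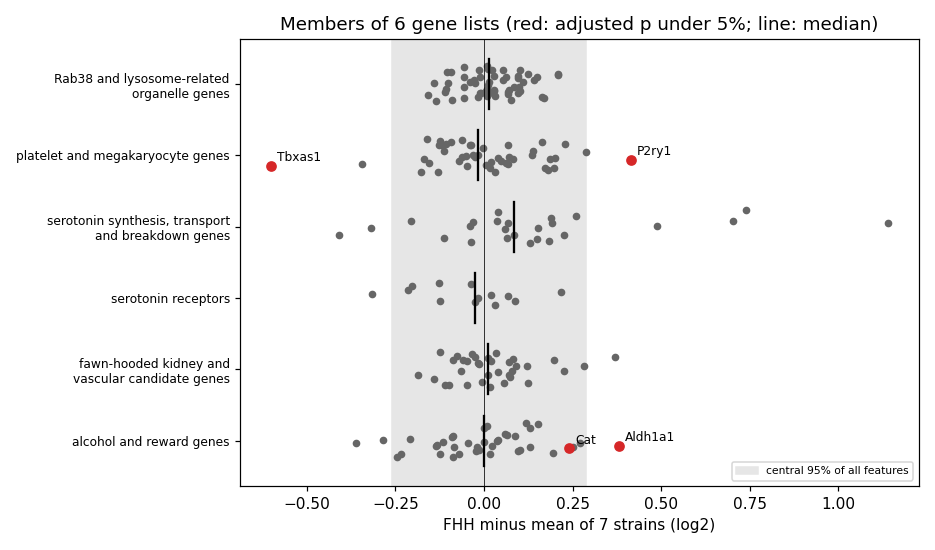
Difference of FHH from the mean of the 7 strains (horizontal axis, log2) for each measured member of 6 gene lists, 1 point per gene. Red points passed an adjusted p under 5%, black lines are list medians, and the grey band from −0.26 to 0.29 holds the central 95% of all features.

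Of 40 listed kidney and vascular candidate genes of the fawn-hooded rat 35 were measured and none was called, where 1.99% of all features were, with a median of 0.01 and a range from −0.19 (Nppa) to 0.37 (Ephx2). Add3, the gamma subunit of the cytoskeletal protein adducin, was 12.85, 12.82 and 12.76 in FHH against a lowest of 12.54, a median of 12.75 and a highest of 12.89, a difference of 0.08 (SE 0.064, adjusted p = 0.87). Dusp5, a phosphatase of ERK, was 7.41, 7.54 and 7.24 against a lowest of 7.08, a median of 7.47 and a highest of 8.01, a difference of −0.05 (SE 0.0977, adjusted p = 0.999), which was 0.03 without FHH animal 3. Sorcs1, a sorting receptor, was 11.45, 11.20 and 11.27 against a lowest of 11.21, a median of 11.37 and a highest of 11.54, a difference of −0.06 (SE 0.0547, adjusted p = 0.924). Fawn-hooded rats have also been used as drinkers of alcohol, and of 43 alcohol and reward genes 39 were measured, 2 called higher (1.18% of all features were) and none lower. Both act on aldehydes or peroxide. Aldh1a1, a cytosolic aldehyde dehydrogenase, was 11.04, 10.79 and 10.98 against a lowest of 10.16, a median of 10.58 and a highest of 10.83, a difference of 0.38 (SE 0.0767, adjusted p = 0.00723), and Cat, catalase, was 11.30, 11.31 and 11.33 against a lowest of 10.81, a median of 11.01 and a highest of 11.37, a difference of 0.24 (SE 0.0494, adjusted p = 0.00797). Their FHH values overlapped those of the other animals, LH/MavRrrc being level with FHH for Cat (mean 11.32), and calls were lost without FHH animal 1 or 3 for Aldh1a1 and without FHH animal 2 or 3 for Cat. Drd3, a dopamine receptor, lay below all others at 3.21, 3.17 and 3.21, lowest elsewhere 3.30, but with adjusted p = 0.0916. Over the 6 lists together 4 of 215 measured genes were called, 1.86% beside 1.99% of all features. With strain as a random block none of the 4 was called, with Aldh1a1 at adjusted p = 0.576 and Cat at adjusted p = 0.967. When sequencing batch was a covariate 9 listed genes were called, where 607 of the 20859 features were.

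Further genes with complete separation lie below the median level, and those named in this paragraph were picked after their values were seen. Mis18a, a factor of centromere assembly, rose by 1.16 from a comparison range of 5.06 to 5.89 to 6.13, 6.52 and 7.21 in FHH (adjusted p = 0.000123). Aldh1a7, a retinal dehydrogenase paralog of Aldh1a1, was 4.58, 4.71 and 4.92 in FHH and a lowest of 3.45, a median of 3.73 and a highest of 4.07 elsewhere, a difference of 0.99 (SE 0.0856, adjusted p = 2.65e-07). Ibsp, bone sialoprotein, rose by 0.84 and Cyp2j4, a cytochrome P450, by 0.62. Bbox1, the last enzyme of carnitine synthesis, was 5.65, 5.09 and 5.03 against a lowest of 5.84, a median of 6.23 and a highest of 6.70, a difference of −0.9995 (SE 0.132, adjusted p = 7.5e-05). Mgmt, which repairs alkylated guanine in DNA, fell by 0.66, and Dhdh, dihydrodiol dehydrogenase, by 0.64. In the deposited annotation exons of Dhdh overlap Nucb1 on the same strand and Tulp2 on the opposite strand, so its level is uncertain. The 3 transcripts of Dhdh had differences from −2.16 to 0.35, and 1 was called lower. LOC102550225 was deposited at 33.68, 29.41 and 28.36 in FHH and a lowest of 4.01, a median of 4.28 and a highest of 4.69 elsewhere; FHH levels of that size cannot be the log2 of a read count, so the order of the groups is given and the size of the gap is not read.

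A list of genes of the interferon response and antigen presentation was assembled after the values were seen, so its count is a description. Of 59 measured genes 2 were called higher and 7 lower, where 1.18% and 0.81% of all features were, 12 had a positive difference, and the median was −0.15 against 0.00 over all features. For some members GK/FarMcwi was high and FHH was not the lowest strain. Irf7 averaged 8.43 in GK/FarMcwi, 7.17 in FHH and 7.11 in BN/NHsdMcwi, and Mx2 11.13 in GK/FarMcwi, 10.01 in FHH and 9.79 in MWF/Hsd. Other members had another strain highest, as LH/MavRrrc for Oasl2 (7.04). The part of single comparison strains in the median was not tested. With strain as a random block Oasl2 (adjusted p = 0.00506) and Cd274 (adjusted p = 0.0279) were still called, and the other 7 had adjusted p from 0.0785 to 1. Irf1, a transcription factor induced by interferon, was 7.58, 7.44 and 7.41 in FHH and a lowest of 7.62, a median of 7.95 and a highest of 8.18 elsewhere, a difference of −0.48 (SE 0.0922, adjusted p = 0.00416). Psmb8, an immunoproteasome subunit, was 6.60, 6.42 and 6.30 against a lowest of 6.63, a median of 6.96 and a highest of 7.34, a difference of −0.57 (SE 0.099, adjusted p = 0.00175). Psmb8 lies in the major histocompatibility complex, and its exons overlap RT1-DOb and RT1-Db1 on the same strand in the deposited annotation, so its level is uncertain. Oasl2, an oligoadenylate synthetase-like protein, was 6.00, 6.10 and 5.85 against a lowest of 6.22, a median of 6.72 and a highest of 7.13, a difference of −0.74 (SE 0.0835, adjusted p = 9.67e-06). Cd274, the checkpoint ligand PD-L1, was 7.22, 6.96 and 6.73 against a lowest of 7.29, a median of 7.48 and a highest of 7.70, a difference of −0.51 (SE 0.0843, adjusted p = 0.00111). FHH was the lowest of 74 strains for Irf1, Psmb8 and Oasl2. The 2 called higher were Tlr3, a receptor for double-stranded RNA, at 8.12, 7.90 and 8.00 against a lowest of 7.08, a median of 7.47 and a highest of 7.85 and a difference of 0.52 (SE 0.101, adjusted p = 0.00519), and Ifit1, which rose by 1.54 but was surpassed by GK/FarMcwi (mean 7.78 against 6.55 in FHH). RT1-N2 and RT1-A1, class I genes of the rat major histocompatibility complex, fell by 1.06 and 0.43. For RT1-N2 the mean was 3.59 in FHH, 5.98 in MWF/Hsd and 5.73 in WAG/RijCrl, and 4.02 to 4.29 in the remaining strains. The 1 transcript of RT1-N2 had a difference of −1.43 and was not called. For RT1-A1 the means of LH/MavRrrc (8.88), M520/N (8.70) and MWF/Hsd (8.77) lay below that of FHH (8.91), and over single omissions its adjusted p reached 0.559, without FHH animal 3. These loci differ between haplotypes and have close paralogs, so their levels are uncertain. Microglia, whose marker levels are given above, are a source of several of these RNAs, and their part in these values was not tested. Leaving out FHH animal 3 raised Irf1 to adjusted p = 0.0677 and leaving out FHH animal 2 also ended its call, Tlr3 lost its call without FHH animal 1 or 3, while Oasl2, Cd274 and Psmb8 stayed called under every omission, the last at up to 0.0493.

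Other strains reached the FHH values in most of the 415 called features. In 87 (21%) no other strain reached the FHH values, in 128 (30.8%) 1 strain did, in 93 (22.4%) 2 did, and in the rest 3 or more. Fam111a, a protease gene, was 7.23, 6.50 and 6.01 in FHH and shared its level with PVG/Seac (mean 6.23), while the other strains sat near the median of 4.38. Acsm3, a medium-chain acyl-CoA synthetase, was 7.13, 7.18 and 7.95 in FHH and 7.58 on average in MWF/Hsd, against a median of 5.30. Hba-a3, an alpha-globin gene, was 6.12, 5.72 and 5.40 in FHH and 5.67 on average in M520/N, against a median of 7.58. Hba-a3 and Hbb-b1 moved in opposite directions (−1.66 and 0.65) among 10 red blood cell markers, whose mean level was 9.13 to 9.30 in FHH and 8.68 to 9.87 in the rest.

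Across all 74 strains of the table FHH kept the most extreme mean in 58 of the 87 separated and called features, 32 above and 26 below. For each of the 66 strains outside the comparison, the features were counted in which its mean also lay beyond the 21 animals on the FHH side. The median over those strains was 9 features and the highest 24, in LE/Stm, followed by 19 in LEXF9/Stm; both have 1 animal in the table. LE/Stm was the nearest strain to FHH, or passed it, for 13 of the 87, among them Mis18a, Aldh1a7, Ibsp, Abca9 and Stambpl1. Of the 66 strains 6 had libraries in batches 15 to 17, while those of LE/Stm and LEXF9/Stm came from other batches.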

How the data were processed

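Whole-brain libraries of 3 FHH/EurMcwi rats and 21 rats of 7 strains were taken from the deposited gene table of processing version v7.1. The values the authors deposited are on a regularized log2 scale, scaled across libraries. The submitters' processing notes name the authors' tools, with no order, as cutadapt 1.9.1, Bowtie2 2.3.4.3, HISAT2 2.1.0, StringTie 1.3.5, RSEM 1.3.1 and DESeq2. The study's methods describe, for an earlier version, removal of 1 factor of unwanted variation before the transformation. Genome build and settings of v7.1 are not given in the sources used here. The deposited annotation holds exon positions with no other measured value. In it exons of Insr overlap Arhgef18 and those of Gpld1 overlap Aldh5a1 and Mrs2, on the opposite strand. Exons of Slc18a2 overlap Pdzd8 and those of Tbxas1 overlap Klrg2, also on the opposite strand. Regularization shrinks differences of low genes, reads shared by paralogs are split by estimation, and depth is unknown, so no counting interval was computed.

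After removal of 73 spike-ins, 20859 features were fitted with limma 3.58.1 in R 4.3.3, with strain as the only factor of 8 levels, a contrast of FHH against the mean of 7 strains and Benjamini-Hochberg adjustment at 5% over all features. Separation was counted without a test. The transcript table of the same version, with 45991 features, was fitted alike, and 71.1% of its identifiers matched a RefSeq symbol. The 3 tables used beside it were normalized separately, so no level was compared between tables. Of the gene symbols 71.6% had a position in the deposited annotation. All 5 promoters asked for were found. Libraries were grouped by strain label. That the 3 animals of a strain are separate animals comes from the series' design text. Among 21 pairs of same-numbered FHH and comparison animals, deviations from strain means correlated between −0.29 and 0.66, over 0.1 in 12. Signs were mixed, and numbers were not taken as pairs. FHH animal 1 correlated at 0.656, 0.654 and 0.556 with animal 1 of M520/N, MWF/Hsd and WAG/RijCrl, which share its batch 15. For FHH, M520/N and MWF/Hsd the number coincides with the batch, and the 6 pairs of FHH with M520/N or MWF/Hsd ran from −0.11 to 0.66; batch was entered as a covariate in an alternative. The fit was also run on simulated data that varied within strains only. As the simulated comparison strains did not differ from each other, that run could not test how calls hold against variation between strains.

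Genes were named by rule: 10 fixed genes; members of 6 lists with all FHH animals outside and an adjusted p under 5%; the 15 largest such differences each way among named genes above the median level; the 3 largest among LOC features; and called features within 2 Mb of Rab38. Some genes that met the rule are not reported here. Other named genes were picked after their values were seen, as stated. The strain, its gene lists and the rule were chosen with earlier results of these data known. Alternatives covered batch, blocks, scaling, filters, comparison strains, other tables and single omissions.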

Additional observations from a re-analysis of the deposited data

How the results depend on the processing

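Counts of called features depended on the model and the features tested. With strain as a random block 17 features were called higher and 20 lower, and of the listed pathway genes 0 by limma with duplicateCorrelation. There 11 of 215 measured listed genes had an unadjusted p under 0.05, beside 4.01% of all features. In the limma fit by strain 27 of them did, beside 9.74% of all features. With sequencing batch as a covariate 270 were lower and 9 listed genes called, where 607 features were called in both directions together. Restricted to features above the median feature, which tests fewer, 53 were higher, 40 lower, 19 lay above and 11 below the other 21, and 2 listed genes were called. With all libraries of the table sharing the spread 2 listed genes were called. Adding 6 other strains of the same batches gave 378 higher, 283 lower, 39 above, 20 below and 7 listed genes, and dropping BN/NHsdMcwi gave 74 below. The table of reconstructed genes, with 84239 features and 21 of the 24 libraries (without animal 1 of FHH, M520/N and MWF/Hsd), gave 126 higher, 330 lower, 577 above, 711 below and 1 listed gene, and 7 listed genes were called in the Ensembl table, which lacks MWF/Hsd animal 1 (23 libraries). Over single omissions the counts ran from 104 to 275 higher, 81 to 186 lower, 60 to 210 above, 49 to 217 below and 1 to 6 listed genes. The lowest called and listed counts came without FHH animal 3, and without FHH animal 2 the counts were 132 higher and 87 lower. With 2 FHH animals left to lie outside, the counts above and below were 210 and 217 without animal 1, 128 and 84 without animal 2, and 102 and 79 without animal 3. Beyond the construction named, the cause was not tested. Of both directions together, 415 in the report, 37 were called with the random block, 93 above the median feature, 661 with 6 strains added, 219 without FHH animal 2 and 185 without FHH animal 3. The 87 called and separated became 22 above the median feature, 243 in the reconstructed table and 179 without FHH animal 1. Under the settings run, these counts otherwise stayed within 1.5 times their values in the report.

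With the replicate number as a block 479 features were called, 408 of them among the 415, and all 87 separated and called features were called, against 34 of the 87 with strain as a random block. The numbers were not taken as pairs, and for FHH, M520/N and MWF/Hsd they coincide with the batch. No called gene that met the naming rule had the opposite sign in a gene-level setting where it was present. In the transcript table the 1 transcript of LOC102553943 was called the other way and that of Aldh3b1 had the opposite sign. Transcripts differed in sign for Insr (−1.30 to 0.65), Gpld1 (−0.74 to 1.46) and Gcnt4 (−0.42 to 1.24), with none of them called. Of the 25 such genes 13 stayed called in every single omission, and 10 of the other 12 lost their call only without FHH animals. Of the 87 separated and called features 56 had their symbol in the reconstructed table, where 53 kept their direction and 18 their call. Depth is unknown, so the limit it sets on low genes cannot be given.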
